A study of Homo sapiens with 4 samples.

Results

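GABRB2, VSNL1 and KIAA1644 were read by symbol from count tables of HGC-27 cells, a human gastric cancer cell line, and are 3 of the 25559 gene symbols counted. They were chosen from the readout itself: each had a clear count in both libraries of control cells and between 0 and 3 counts in both libraries of RUNX3 KO cells. Control cells are labelled wildtype and the other cells carry a RUNX3 knock-out, which the study introduced by Cas9 editing followed by cloning from single cells, and all were grown in serum-containing medium with no treatment in the labels. There were 2 libraries of poly(A) RNA in each group. Neither the labels nor the methods say how many clones were used or whether the libraries came from separate cultures, so SDs and p-values measure the spread between these libraries only, which may be technical. The libraries held 11731401 to 12110876 reads on genes. RUNX3, the targeted gene, still had reads in the KO, 351 and 308 in control against 225 and 185. Its log2 fold change, RUNX3 KO minus control, was -0.70 (adjusted p = 1.43e-09, edgeR). It was -0.86 when RUNX3 KO replicate 1 was left out and -0.55 when RUNX3 KO replicate 2 was left out. Few reads fell on markers of the labelled tissue. Of 7 genes of the gastric mucosa, 6 were at 0 in all libraries and MUC6 had 1 read in 1 library, and of 5 epithelial genes KRT19 was at 0, EPCAM had at most 1 read per library and KRT18 at most 14. The other epithelial genes had more reads after RUNX3 KO, KRT8 with 19 and 11 in control against 72 and 81, and CDH1 with 15 and 21 against 30 and 32.

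The 3 genes encode unrelated proteins that are best known from the nervous system or from development. GABRB2 encodes the beta-2 subunit of the GABA-A receptor, a chloride channel of subunits around a central pore that opens when GABA binds, and in the brain it is commonly built from alpha, beta and gamma subunits. VSNL1 encodes visinin-like protein 1 (VILIP-1), a myristoylated EF-hand protein of the neuronal calcium sensor family that moves to membranes when calcium rises. KIAA1644 is an older symbol of SHISAL1, a single-pass membrane protein related to the Shisa family, whose members are known as regulators of WNT and FGF receptors and as auxiliary subunits of neurotransmitter receptors.

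On GRCh37 (hg19), GABRB2 spans 160715436 to 160976050 on chromosome 5 (minus strand), with 10 exons in its canonical GENCODE transcript. VSNL1 spans 17720393 to 17838285 on chromosome 2 (plus strand) with 4 exons, and KIAA1644 spans 44639545 to 44708831 on chromosome 22 (minus strand) with 5. The start of GABRA6, on the opposite strand, overlaps GABRB2. The strand setting of the counting was not given in the sources used here, but GABRA6 had 0 reads in all libraries. No annotated gene overlapped VSNL1 or KIAA1644 by symbol in the same annotation.

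RefSeq promoter windows, here the 250 bases before an annotated start, are shown for the genes of the group that the sequence table holds, so that the start of each can be read for RUNX motifs beside its values in the RUNX3 knock-out. GABRB2 had 1 window and VSNL1 had 2, from alternative starts, and KIAA1644 had none in the table. The positions are on GRCh38.p14, GABRB2 at chr5:161546726-161546975 (minus strand), the first VSNL1 window at chr2:17539722-17539971 and the second at chr2:17540446-17540695 (both plus strand). Each is written 5′ to 3′ on the strand of the gene, with CpG dinucleotides in capitals:
GABRB2 promoter: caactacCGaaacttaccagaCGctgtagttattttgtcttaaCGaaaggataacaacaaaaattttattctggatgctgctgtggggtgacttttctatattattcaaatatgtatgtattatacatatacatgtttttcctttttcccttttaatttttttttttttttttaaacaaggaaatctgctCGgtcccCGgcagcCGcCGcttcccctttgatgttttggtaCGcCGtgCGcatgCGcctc
VSNL1 promoter, first start: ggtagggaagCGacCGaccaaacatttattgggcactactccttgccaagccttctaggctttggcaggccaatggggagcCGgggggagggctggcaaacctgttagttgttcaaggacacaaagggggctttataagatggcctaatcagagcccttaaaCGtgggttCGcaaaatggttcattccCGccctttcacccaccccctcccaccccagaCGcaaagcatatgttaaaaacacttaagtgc
VSNL1 promoter, second start: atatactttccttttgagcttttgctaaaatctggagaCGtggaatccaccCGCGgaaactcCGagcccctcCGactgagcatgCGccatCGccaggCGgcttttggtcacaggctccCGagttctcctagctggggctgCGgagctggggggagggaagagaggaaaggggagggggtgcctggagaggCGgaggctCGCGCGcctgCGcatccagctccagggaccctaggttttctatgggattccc
The RUNX hexamers TGTGGT and TGCGGT were searched on both strands over these windows and the 50 bases after each start. Neither was found in any of the 3 windows of 300 bases, whereas 19.6% of 35116 RefSeq windows of that length held at least 1 of the motifs, 13.1% for TGTGGT and 7.29% for TGCGGT. The windows held 11, 7 and 15 CpG dinucleotides in the order printed, beside a median of 11 over all windows. The GC content was 38.0% before the GABRB2 start and 52.8% and 61.2% before those of VSNL1. The windows thus differed among themselves in base composition, and the search covers only these letters and no distal element.

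GABRB2 had 266 reads in control replicate 1 and 298 in replicate 2, but only 2 in RUNX3 KO replicate 1 and 0 in replicate 2. The groups were thus far apart, with hardly a read left. In CPM (counts scaled to the TMM library size by edgeR's cpm function), control cells stood at 23.9 ± 1.92 and RUNX3 KO cells at 0.0847 ± 0.120 (SD, n = 2 per group). The pooled reads, 564 against 2, gave a ratio of 285 between control and RUNX3 KO cells, with an exact 95% interval from 78.4 to 2356. RUNX3 KO cells therefore kept 0.351% of the control level, with an interval from 0.0424% to 1.28%. These intervals cover counting error only. In bulk RNA, fewer expressing cells and less RNA per cell cannot be told apart, here and for the other genes below. Without RUNX3 KO replicate 1, whose 2 reads were the only ones of the group, GABRB2 was at least 95.7-fold lower against a floor of 3 counts per library, and without RUNX3 KO replicate 2 the ratio was 141 (38.8 to 1167).

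VSNL1 had 230 and 243 reads in control libraries, against 1 and 2 after RUNX3 KO, so at least 1 read remained in each library. Control replicates 1 and 2 stood at 19.5 and 20.6 CPM, and the RUNX3 KO level was 0.126 ± 0.0577 CPM (SD, n = 2). The ratio of the pooled reads, 473 against 3, was 159 (exact 95% interval 54.1 to 774), a residual level of 0.628% (0.129% to 1.85%). Leaving out RUNX3 KO replicate 1 gave a ratio of 120 (33.2 to 997) and leaving out RUNX3 KO replicate 2 gave 236 (42.2 to 9360). The size of the fall therefore rests on single reads.

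KIAA1644 had 192 and 215 reads in control libraries, against 1 and 0 after RUNX3 KO. Its mean went from 17.2 ± 1.38 to 0.0424 ± 0.0599 CPM (SD, n = 2 per group), again with no overlap. The ratio of pooled reads, 407 against 1, was 411, with the widest interval of the group, from 73.3 to 16263, and a residual level of 0.243% (0.00615% to 1.36%). Without RUNX3 KO replicate 1 the gene was at least 69.1-fold lower, and without RUNX3 KO replicate 2 the ratio was 203 (36.3 to 8057).

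**Figure D1:**
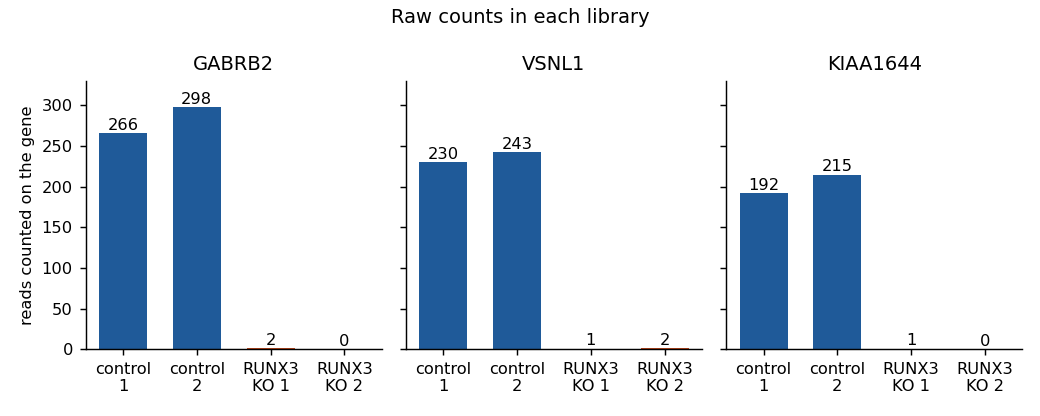
Raw read counts on GABRB2, VSNL1 and KIAA1644 (vertical axis) in the 2 control and 2 RUNX3 KO libraries, 1 bar per library with its count above it. Control libraries ran from 192 to 298 reads and RUNX3 KO libraries from 0 to 2.

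All 3 genes together took 688 and 756 reads in control libraries, against 4 and 2 after RUNX3 KO. The intervals of the ratios overlapped, so the order of the genes by the size of their fall was not resolved at this depth. The control libraries ranked them more clearly. Per kilobase of exon in the canonical transcript, VSNL1 had the highest control level at 8.25 ± 0.323 RPKM (CPM divided by the length in kilobases; SD, n = 2), GABRB2 had 3.29 ± 0.265 RPKM and KIAA1644 had 2.52 ± 0.202 RPKM, and the libraries of neighbouring genes in this order did not overlap. These are modest levels, with 45.4% of 12210 tested genes of known length below VSNL1, 25.2% below GABRB2 and 21.0% below KIAA1644.

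Over all genes, 520 of the 12967 tested were lower in RUNX3 KO cells by the study's criteria of 2-fold and an unadjusted p of at most 0.05 in edgeR's quasi-likelihood test, which is 4.01%, and 274 (2.11%) were higher, 6.12% in all. The paper, with another normalization, reported more genes in each direction. A count of at most 3 in both RUNX3 KO libraries was rarer than a 2-fold fall. It was met by 62 tested genes that were lower, or 0.478%, and GABRB2, VSNL1 and KIAA1644 had the 3 highest mean control counts among them. This follows from the way they were chosen and is given as a description. The next gene in that order was TNC, which encodes tenascin-C, with 164 and 183 reads in control and 0 in both RUNX3 KO libraries. Just outside the limit of 3 counts, with 4 to 10 reads in the higher RUNX3 KO library, the highest control counts were those of COL1A2 (1973 and 2030 reads against 1 and 5), the potassium channel gene KCNMA1 (252 and 273 against 2 and 6) and PARM1 (262 and 248 against 5 and 7). Among the 1091 tested genes whose control counts both lay between 192 and 298, the range of the chosen genes, the median log2 fold change was -0.02. In that range 29 genes (2.66%) were lower by the study's criteria, and 6 had at most 10 reads in either RUNX3 KO library. The only ones with at most 3 were GABRB2, VSNL1 and KIAA1644. The chosen genes set this range themselves, and TNC lay just below it, so this too is only a description.

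**Figure D2:**
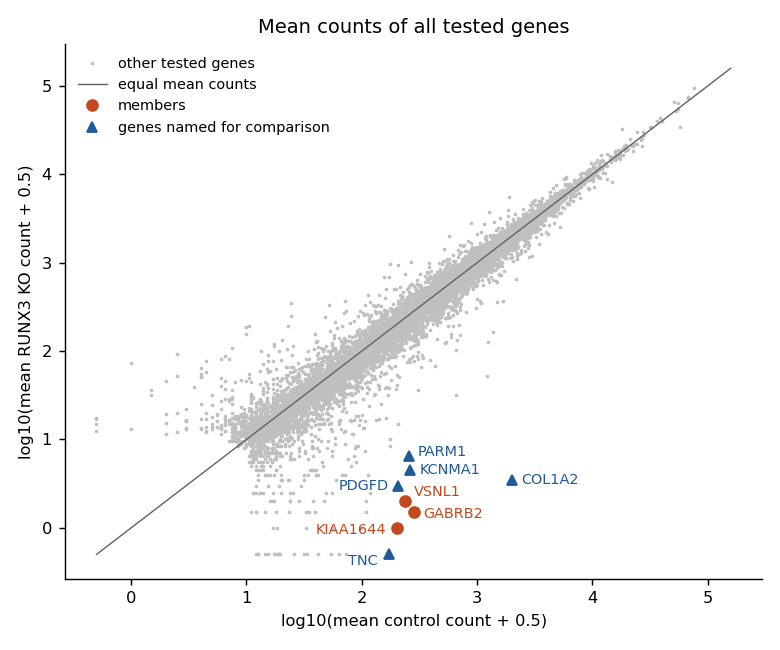
Mean raw count of each tested gene in control (horizontal axis) and RUNX3 KO libraries (vertical axis), both as log10 of the count plus 0.5, with 1 grey point per gene and a line at equal counts. GABRB2, VSNL1 and KIAA1644 (circles) lie far under the line beside TNC, PDGFD, KCNMA1, PARM1 and COL1A2 (triangles).

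The pattern most like each gene was sought by the Euclidean distance of log2(CPM + 0.5) over the 4 libraries, a measure in which any gene with a similar control level and few KO reads is close. For GABRB2 the nearest were VSNL1 (distance 0.579), KIAA1644 (0.678), PDGFD (0.780), KCNMA1 (1.01) and TNC (1.05). The nearest to VSNL1 were KIAA1644 (0.515), GABRB2 (0.579), KCNMA1 (0.650), TNC (0.778) and PDGFD (0.826). KIAA1644 had TNC nearest (0.388), then VSNL1 (0.515), PDGFD (0.674), GABRB2 (0.678) and KCNMA1 (1.14). PDGFD, which encodes a platelet-derived growth factor, had 209 and 205 reads in control and 5 and 0 in RUNX3 KO libraries.

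GABRB2 was 1 of 19 genes of the GABA-A receptor family that were looked up. Of the 18 others, 7 passed the filter on low counts, and 11 had at most 7 reads in any library, 6 of them 0 in all. With p-values from edgeR adjusted over all tested genes, 1 relative was lower, 2 were higher and 4 did not pass, with a median log2 fold change of 0.68 over the 7, beside -0.00213 over all tested genes. At the same adjusted p of 0.05, 24.4% of all tested genes were lower and 24.5% higher, 48.9% in all, so 3 of 7 is near the background. None of the 7 changed by 2-fold.

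GABRB1, which encodes the beta-1 subunit, had 3 to 5 reads per library and was not tested. Per length, GABRB2 stood at 3.10 and 3.48 RPKM in control libraries and at 0.0233 and 0 RPKM in RUNX3 KO libraries, while GABRB1 stood at 0.175 and 0.219 RPKM and at 0.218 and 0.129 RPKM. GABRB2 made up 17.1% and 17.9% of the summed per-length level of the family in control libraries, and 0.141% and 0% in RUNX3 KO libraries. The summed level itself was 18.2 and 19.5 RPKM in control and 16.5 and 16.1 RPKM in RUNX3 KO libraries.

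Among the alpha subunits, GABRA2 had the highest control level per length, with 4.66 and 4.47 RPKM. It rose by 0.68 on the log2 scale (SE 0.0635, adjusted p = 2.91e-16), from 469 and 449 to 720 and 765 reads. GABRA3 had 87 and 111 reads in control and 89 in both RUNX3 KO libraries (log2 fold change -0.17, adjusted p = 0.386), and GABRA4 had 12, 3, 15 and 14 reads over the 4 libraries (0.93, adjusted p = 0.0749). Without control replicate 1 the GABRA4 value was 2.21, and without control replicate 2 it was 0.26. GABRE, the epsilon subunit gene on chromosome X, fell from 232 and 256 to 154 and 122 reads (-0.83, SE 0.112, adjusted p = 6.27e-10). GABRQ, the theta subunit, and GABRD, the delta subunit, had differences of -0.60 and 0.71 with adjusted p-values of 0.0786 and 0.190. GABRG1 and GABRG3, which encode gamma subunits, had at most 2 reads in any library.

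Genes that make, move or bind GABA were listed as further context. Of 11 for synthesis, transport, breakdown and GABA-B receptors, 4 were tested, of which 2 were lower and 1 higher, none by 2-fold, with a median log2 fold change of -0.32. GAD1, which makes GABA from glutamate, fell by 0.43 on the log2 scale (246 and 238 reads to 177 and 185). GABBR1, a subunit of the metabotropic GABA-B receptor, fell by 0.39. ALDH5A1, of GABA breakdown, rose by 0.28. Of 17 genes for trafficking and clustering of the receptor and for chloride transport, 15 were tested, with a median of -0.14. At the same adjusted p, 7 of them were lower and 3 higher, beside the same 24.4% and 24.5% of all tested genes. Past 2-fold were SHISA7, described with the Shisa family below, and SLC12A2, the chloride importer NKCC1, with 1136 and 1174 reads in control and 2692 and 2771 in RUNX3 KO libraries, a rise of 1.23 on the log2 scale (SE 0.0386, adjusted p = 7.35e-47). SLC12A5, the chloride exporter KCC2, had 7 to 13 reads per library and did not pass (0.66, adjusted p = 0.239). GPHN, which encodes the scaffold protein gephyrin that holds GABA-A receptors at synapses, fell by 0.23 on the log2 scale.

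VSNL1 belongs to 14 neuronal calcium sensor genes. Of the 13 others, 6 were tested and 7 had at most 11 reads in any library, 5 of them 0 in all. At an adjusted p of 0.05 in edgeR, KCNIP3 was the 1 relative that was lower, none was higher and 5 did not pass, with a median log2 fold change of -0.26. At an unadjusted p of 0.05 in the same test, HPCAL1 and KCNIP2 were lower too, and again none was higher. KCNIP3 (also known as DREAM or calsenilin) fell from 542 and 618 reads to 448 and 491 (-0.32, SE 0.0687, adjusted p = 5.39e-05). Its log2 fold change was -0.26 without RUNX3 KO replicate 1 and -0.37 without RUNX3 KO replicate 2. NCS1, the most abundant sensor per length, had 1285 and 1287 reads in control and 1344 and 1352 in RUNX3 KO libraries (0.05, SE 0.0432, adjusted p = 0.305). HPCAL1, a close relative called VILIP-3, had 254 and 271 reads in control and 231 in both RUNX3 KO libraries (-0.20, SE 0.0952, adjusted p = 0.0777). HPCAL4, which encodes VILIP-2, had at most 2 reads per library. KCNIP2, GUCA1B and KCNIP1 had 6 to 33 reads per library and adjusted p-values of 0.0517, 0.382 and 0.840. KCNIP4 had 1 and 2 reads in control and 11 and 10 in RUNX3 KO libraries and stayed below the filter. VSNL1 accounted for 13.5% and 13.4% of the summed per-length level of the family in control libraries and for 0.0720% and 0.140% in RUNX3 KO libraries.

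Visinin-like proteins are known to act on membrane guanylyl cyclases and on the alpha-4 subunit of nicotinic receptors, and are myristoylated by N-myristoyltransferases. The 13 genes listed here also took in subunits of soluble guanylyl cyclase, the natriuretic peptide receptor NPR3, which has no cyclase domain, and the nicotinic subunit CHRNB2. Of these 13, 6 were tested, of which 2 were lower and 1 higher, none by 2-fold, with a median of -0.07. The lower ones were GUCY1A3, a soluble cyclase subunit, and the N-myristoyltransferase NMT2, which fell by 0.24 and 0.19 on the log2 scale. NMT1 rose by 0.17 on the log2 scale. NPR2, a receptor guanylyl cyclase, had 0 reads in both control libraries and 10 and 15 in RUNX3 KO libraries but did not pass the filter. CHRNA4 had 33 and 34 reads against 46 and 36 (0.28, adjusted p = 0.349).

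KIAA1644 was looked up with 10 genes of the Shisa family, of which 3 were tested and 7 had at most 10 reads in any library. SHISA7, an auxiliary subunit of GABA-A receptors, was the only tested relative that was lower and the only one past 2-fold. It had 23 reads in each control library and 8 in each RUNX3 KO library, a difference of -1.52 on the log2 scale (SE 0.378, edgeR adjusted p = 4.30e-04). With the Wald test of DESeq2 the difference was -1.54 with an adjusted p of 0.0604, and in edgeR without RUNX3 KO replicate 2 it was -1.51. SHISA7 did not reach 10 counts in each library, the stricter filter tried, so that filter gave no value. SHISA5, the most abundant member, had 1309 and 1346 reads in control and 1248 and 1303 in RUNX3 KO libraries (-0.07, SE 0.0436, adjusted p = 0.176). SHISA3 had 37 and 29 reads against 43 and 52 (0.51, SE 0.231, adjusted p = 0.0597). The median of the 3 was -0.07, and 24.4% of all tested genes were lower at an adjusted p of 0.05 in edgeR. Of 5 more distant Shisa-like membrane protein genes, 4 were tested and none passed an adjusted or an unadjusted p of 0.05 in edgeR, their median being -0.17. KIAA1644 made up 3.93% and 4.35% of the summed per-length level of the family in control libraries and at most 0.0226% in RUNX3 KO libraries. SHISA5 stood at 54.5 and 56.1 RPKM in control and at 52.0 and 53.3 RPKM in RUNX3 KO libraries and held most of the summed level in each.

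**Figure D3:**
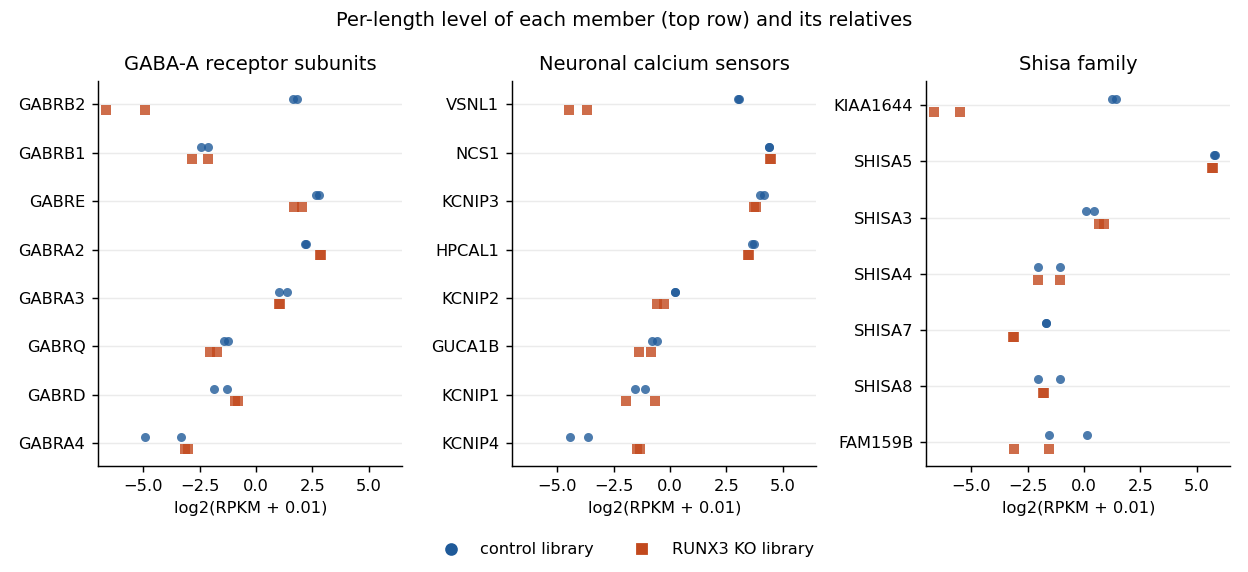
Level per length of GABRB2, VSNL1 and KIAA1644 (top row of each panel) and of the relatives drawn beside them, others being left out, as log2(RPKM + 0.01), with control libraries as circles and RUNX3 KO libraries as squares. In each family the top gene moved far to the left in RUNX3 KO libraries, while GABRA2 moved to the right and GABRE and SHISA7 to the left by less.

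GABRB2 and VSNL1 are at home in neurons, so 12 neuronal marker genes were read beside them. The 4 that were tested all passed an adjusted p of 0.05, as did 48.9% of all tested genes. NEFL fell from 32 and 29 to 8 and 9 reads (log2 fold change -1.84, adjusted p = 5.12e-06), TUBB3 fell by 0.54 and SYT1 by 0.56, and SNAP25 rose by 0.73 (adjusted p = 0.0459). The other 8 had at most 10 reads in any library, with STMN2, ELAVL4 and NEFM at 0 in all. The summed level of the 12 markers was 99.3 and 97.1 CPM in control and 70.5 and 65.4 CPM in RUNX3 KO libraries, of which TUBB3 had a mean of 87.2 CPM in control and 59.8 CPM in RUNX3 KO cells. The 6 leukocyte and endothelial markers summed to 0.998 to 1.95 CPM, with CD3E and PECAM1 at 0 in all libraries. The 5 epithelial markers summed to 2.96 and 2.80 CPM in control and 8.81 and 10.6 CPM in RUNX3 KO libraries, and both that were tested rose, KRT8 by 2.33 and CDH1 by 0.77 on the log2 scale. The part of these markers in the loss of GABRB2, VSNL1 and KIAA1644 was not tested.

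Around GABRB2, on chromosome 5, 1 gene was past 2-fold among those nearest. Of 10 tested neighbours, 5 to either side, 2 were lower and 4 higher at an adjusted p of 0.05. Among all tested genes 24.4% were lower and 24.5% higher. The median log2 fold change of the 10 neighbours was -0.05. The closest, by distance between start sites along the chromosome, were PTTG1 at -1.127 Mb, with a log2 fold change of 0.24, and CCNG1 at 1.889 Mb, with 0.11. The exception was ODZ2 (TENM2 in GENCODE), which encodes the adhesion protein teneurin-2 and starts 5.430 Mb away, with 647 and 668 reads in control and 32 and 31 in RUNX3 KO libraries (-4.39, SE 0.121, adjusted p = 2.03e-51).

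Around VSNL1, on chromosome 2, most neighbours did not pass. Of its nearest 10 tested genes, 3 were lower, none was higher and 7 did not pass, with a median of -0.01. Over all tested genes, 24.4% were lower and 24.5% higher at the same adjusted p. DDX1, at -1.989 Mb, had a log2 fold change of -0.01, and GEN1, at 0.215 Mb, had -0.19. TRIB2 was the one neighbour past 2-fold, at -1.21.

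KIAA1644 lies on chromosome 22, where most genes had less RNA in RUNX3 KO cells. Of the 293 tested genes of that chromosome, 249 (85.0%) were lower, beside 24.4% of all tested genes, and their median was -0.53. Of the 10 tested neighbours of KIAA1644, 9 were lower and 1 did not pass, from -0.72 to -0.31 with a median of -0.41. SAMM50, at -0.358 Mb, had a log2 fold change of -0.40, and LDOC1L (RTL6 in GENCODE), at 0.185 Mb, had -0.60. The fall of KIAA1644, with a fitted log2 fold change of -8.36, exceeded that of each of these 10, and the share of it that goes with the rest of the chromosome was not tested.

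**Figure D4:**
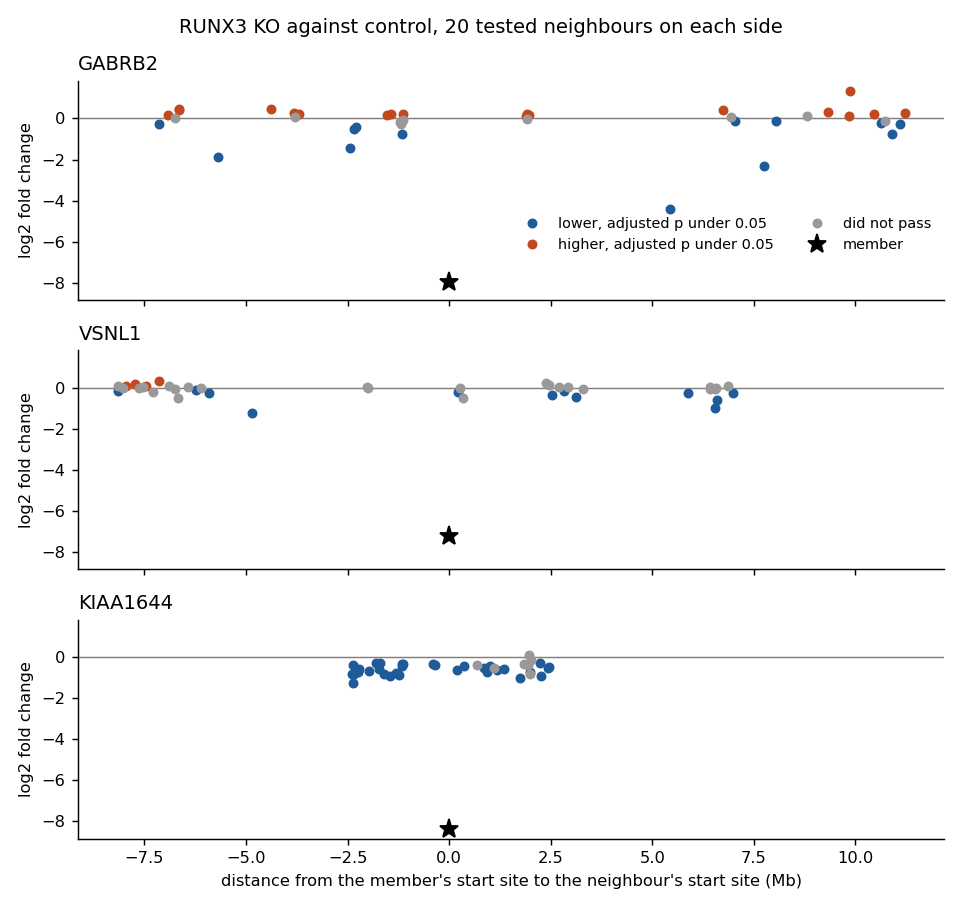
Log2 fold change of RUNX3 KO against control (vertical axis) for GABRB2, VSNL1 and KIAA1644 (stars) and for 20 tested neighbours on each side, by distance between start sites in Mb (horizontal axis), coloured by the adjusted p of 0.05. Points scatter around 0 near GABRB2 and VSNL1, and nearly all lie below 0 near KIAA1644.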

How the data were processed

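HGC-27 cells were profiled by RNA-seq in 2 control and 2 RUNX3 KO libraries. The authors deposited raw counts of reads per gene symbol, one file per library, without normalization. The paper names STAR, hg19 and featureCounts on GENCODE genes, whereas the submitters' processing notes name HISAT2 2.1.0, HTSeq and hg19, and the last 5 lines of each file count unassigned reads as HTSeq does. These rows took 25.9% to 28.1% of all counts and were left out. The labels and the paper also differ on the medium, the RNA kit and where libraries were made. Strand settings were not given in the sources used here. The deposited counts, 11731401 to 12110876 per library, limit the precision for genes with few reads.

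The tests used edgeR 4.0.16 under R 4.3.3. Low counts were removed by filterByExpr (minimum count 10, minimum total 15), leaving 12967, scaled by TMM and compared by the quasi-likelihood test without a replicate block, with Benjamini-Hochberg adjustment over all tested genes. Each SE was derived from the F statistic and the log2 fold change. Ratios for GABRB2, VSNL1 and KIAA1644 came from pooled, scaled counts with exact conditional binomial 95% intervals, or against a floor of 3 counts where the RUNX3 KO libraries used were at 0. RPKM used the exon length of the canonical transcript in GENCODE 44 lifted to GRCh37, and the annotation used for counting may differ. Of 25559 symbols, 19607 matched by symbol and 2159 through a RefSeq synonym. Promoter windows came from RefSeq (GRCh38.p14). The fit was tested on simulated counts. Some genes of the lists are counted in the totals and are not reported here by name.

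The genes and the lists were chosen with earlier results of these data known. GABRB2, VSNL1, KIAA1644 and RUNX3, tested genes of the 3 families, the 5 genes nearest in pattern, the nearest tested gene on each side, the first 3 genes inside and outside the limit of 3 counts, and genes of other lists past 2-fold were named by rule, and the others were named after their values were seen. Replicate 1 of control differed from replicate 2 by little more than counting noise (chi-square over degrees of freedom 1.22, 13692 genes), as did those of RUNX3 KO (1.18, 13510 genes). They were kept as separate libraries, but so small a spread may be technical, and the p-values rest on it. Alternatives were DESeq2 1.42.0 and its size factors, library size alone, other filters, a replicate block, a prior count of 2, other numbers of neighbours and each library left out.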

Additional observations from a re-analysis of the deposited data

How the results depend on the processing

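The fitted falls of GABRB2, VSNL1 and KIAA1644 kept their direction in every fit that could include them. A requirement of 10 counts in every library removed all 3 genes, so it gave no value. Their fitted sizes, -7.98, -7.20 and -8.36 on the log2 scale, depend on the prior count and became -6.57, -6.10 and -6.37 with a prior count of 2. With each library left out in turn they ranged from -11.15 to -7.05, from -7.72 to -6.82 and from -10.68 to -7.50, the lone library of a group being taken to vary like the others. The same requirement of 10 counts left 298 lower and 160 higher genes over the whole table, while leaving out libraries gave 531 to 538 and 267 to 317. Called relatives of VSNL1 numbered 1, and 2 with library size alone, with no filter and with 10 counts in every library. Called Shisa relatives numbered 1, and 0 with the Wald test of DESeq2 and with 10 counts in every library. Called GABA-A receptor relatives numbered 3 in each fit that used all libraries. By construction, a limit of 5 counts in place of 3 raised the 62 near-silent genes to 102, and no filter raised them to 2268. With 20 neighbours on each side the medians were 0.07 for GABRB2, -0.02 for VSNL1 and -0.55 for KIAA1644, and the cause of the shifts was not tested. GABRA3 ranged from -0.33 to 0.02 and KCNIP1 from -0.68 to 0.65 with libraries left out.

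Replicates of the same number were not stated to be paired, and their deviations correlated at 0.0218. With a replicate block, 519 genes were lower and 274 higher, the falls were -7.98, -7.20 and -8.36, and the called relatives numbered 3, 1 and 1.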
